A study of Mus musculus with 18 samples.

Results

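The genes described here are 10 genes of class I antigen presentation, chosen by symbol: the heavy chains H2-K1, H2-D1 and H2-T23, the light chain B2m, the peptide transporter subunits Tap1 and Tap2, the loading factor Tapbp, and the inducible proteasome subunits Psmb8, Psmb9 and Psmb10. All 10 were among the 35441 genes listed for the livers, and all 10 were among the 14533 that were tested, each of which had over 100 reads in sum across 18 libraries. Liver RNA was sequenced from 3 mice in each of 6 groups, namely WT mice, Lipa-/- mice and rAAV8-treated Lipa-/- mice at 12- and at 34-weeks post-injection, which the labels give as 3 and 8 months. Lipa encodes lysosomal acid lipase, the enzyme that splits cholesteryl esters and triglycerides in lysosomes, and Lipa-/- mice are a model of its deficiency. The line lacks exon 4 of Lipa, removed with a Cre driven by the CMV promoter, and was backcrossed to C57/BL6N, and the study used male mice. The treated mice carried the same deletion and received intravenously an rAAV8 vector with human LIPA behind the hAAT promoter, which is active in hepatocytes. WT and untreated Lipa-/- mice are labelled as having received no treatment. Time points also differ in the study code in the sample names, so time and code cannot be told apart, and 1 Lipa-/- mouse at 12-weeks (mouse 5) carries a code of its own. According to the methods, most untreated mice of the long cohort reached their endpoints before 34-weeks, so this label may stand for an earlier age in some of them.

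Class I molecules show peptides from inside the cell to CD8 T cells. The proteasome cuts proteins into peptides, the Tap1-Tap2 transporter moves them into the endoplasmic reticulum, and tapasin, the product of Tapbp, holds the transporter next to empty heavy chains so that they can be loaded. A heavy chain reaches the surface together with beta-2-microglobulin, the product of B2m. Under interferon-gamma the catalytic subunits Psmb5, Psmb6 and Psmb7 are exchanged for Psmb8, Psmb9 and Psmb10, which gives the immunoproteasome. Most cells express class I genes, hepatocytes at a low level and leukocytes at a high level. The heavy chains H2-K1 and H2-D1 are the classical class I genes of the C57BL/6 mouse, H2-T23 encodes the nonclassical Qa-1, and H2-Q10 encodes a secreted class I molecule made by the liver.

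In the annotation of GRCm39, 8 of the 10 genes lie on chromosome 17, within the major histocompatibility complex, B2m lies on chromosome 2 (121977957 to 121983594, plus strand) and Psmb10 on chromosome 8 (106662362 to 106665077, minus strand). H2-K1 spans 34214987 to 34219321 on the minus strand, Tapbp 34134873 to 34148267 on the plus strand, H2-D1 35481691 to 35486475 on the plus strand and H2-T23 36340229 to 36345571 on the minus strand. Psmb9 (34400960 to 34406738, minus strand), Tap1 (34405996 to 34416199, plus strand), Psmb8 (34416690 to 34420428, plus strand) and Tap2 (34422501 to 34435829, plus strand) are neighbours. Upstream windows of 250 bases were taken from RefSeq promoters (GRCm38.p6), matched to the GRCm39 sequence without mismatch, and 9 of the 10 genes had one. Tap2 had none. The windows of H2-K1 (chr17:34219322-34219571, minus strand) and H2-D1 (chr17:35481820-35482069, plus strand) are shown because H2-D1 was called in the Lipa-/- livers at 12-weeks and H2-K1 was not, and the window of B2m (chr2:121977918-121978167, plus strand) stands beside them as that of their shared partner. In the heavy chains, capitals mark the kappaB motif, spelled GGGGA, any 1 base and TCCCC, and the interferon regulatory factor core AANNGAAA, here read on the other strand. In B2m they mark the longer pair of GAAA and GAAA with any 2 bases between, which contains that core.
H2-K1: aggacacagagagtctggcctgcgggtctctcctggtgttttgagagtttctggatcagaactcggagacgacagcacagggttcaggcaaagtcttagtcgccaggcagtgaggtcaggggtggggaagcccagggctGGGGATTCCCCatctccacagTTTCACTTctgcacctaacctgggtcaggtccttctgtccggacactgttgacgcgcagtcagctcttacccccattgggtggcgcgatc
H2-D1: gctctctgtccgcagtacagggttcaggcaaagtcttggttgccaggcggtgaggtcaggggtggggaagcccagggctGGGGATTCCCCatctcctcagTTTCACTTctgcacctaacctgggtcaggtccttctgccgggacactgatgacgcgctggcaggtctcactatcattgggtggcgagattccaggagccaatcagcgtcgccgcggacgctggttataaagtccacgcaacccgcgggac
B2m: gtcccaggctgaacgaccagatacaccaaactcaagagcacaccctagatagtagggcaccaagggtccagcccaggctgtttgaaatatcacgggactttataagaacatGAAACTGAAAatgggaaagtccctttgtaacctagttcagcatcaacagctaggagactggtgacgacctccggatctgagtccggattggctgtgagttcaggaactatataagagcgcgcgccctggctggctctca

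With the H2-D1 window shifted by 60 bases, 166 of 190 bases (87.4%) were identical between H2-K1 and H2-D1, the capitals included. Motifs were searched on both strands from 250 bases before to 50 after the start. The kappaB motif in this spelling, that of enhancer A of class I genes, occurred in 12 of 27025 promoters (0.0444%), among them H2-K1 and H2-D1. Because the spelling is the class I form, its presence in these genes was given in advance. Other spellings of kappaB sites were not counted. The GAAA pair occurred in 3.49% of all promoters and in 2 of the 9 windows (H2-T23 and B2m), and AANNGAAA in 24.2% and in 4. TGACGC, the core of the X2 box of class I promoters, was found in 7.5% and in 2 of the 9, the Y box CCAAT in 37.9% and in 7, and the GC box GGGCGG in 35.9% and in 3. Psmb9 and Tap1 are transcribed away from each other, from RefSeq starts 226 bases apart. The stretch between them (chr17:34406305-34406529, plus strand, 225 bases) is printed because Psmb9 was called in treated against WT mice at 12-weeks and Tap1, from the same stretch, was not. The difference between both genes was not tested. The stretch lies between the RefSeq starts but inside both annotated gene spans.
between Psmb9 and Tap1: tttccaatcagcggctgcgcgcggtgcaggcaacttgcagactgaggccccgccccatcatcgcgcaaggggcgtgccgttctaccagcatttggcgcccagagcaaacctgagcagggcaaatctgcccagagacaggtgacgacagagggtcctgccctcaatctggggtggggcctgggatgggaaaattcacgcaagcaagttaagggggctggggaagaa

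Each library held between 17527848 and 25833134 reads on genes. In WT livers murine Lipa stood at 202 to 323 CPM (read counts relative to library size, scaled with TMM factors), in untreated Lipa-/- livers at 16.7 to 33.4 and in treated ones at 29.1 to 37. The human transgene stood at 523 to 2750 CPM in treated livers, at 0 in all untreated Lipa-/- and 12-weeks WT livers, and at up to 0.906 in the WT livers at 34-weeks. All 7 hepatocyte markers tested had reads in each group, with a sum of 20700 to 61400 TPM (the transcript level in a library after division by gene length). Treated livers at 12-weeks, and WT mouse 1 and treated mouse 9 at 34-weeks within their groups, stood apart in how counts depended on gene length. Per doubling of length, the log2 level relative to the mean of all mice moved by -0.44, -0.36 and -0.36 in treated mice 10, 11 and 12 at 12-weeks, and by -0.25 in that WT mouse against 0.19 and 0.20 in the other WT mice at 34-weeks. In treated mouse 9 at 34-weeks it moved by 0.36, against 0.09 and -0.06 in treated mice 11 and 12 of that time. Length accounted for 23.8% of the variance in that mouse 9, the largest share of all 18 libraries. Mouse 10 was also the lowest of its group in GC dependence, with -0.80 per 10% GC against -0.37 and -0.39. Where leaving out 1 of these mice changed a call among the 10 genes in the comparisons described, the value without it is given beside the result. GC dependence also differed by genotype, at 0.20 to 0.40 per 10% GC in all untreated Lipa-/- mice and -0.19 to 0.07 in all WT mice. Removal of the trends with length and GC content lowered the number of calls between these groups, as given below. TMM scaling also matters here, because relative to it, scaling by total counts moved the median of all genes by 0.47 and 0.63 (log2) in Lipa-/- against WT mice at 12- and 34-weeks, by -0.39 in treated against WT mice at 12-weeks, by -0.87 and -0.54 in treated against untreated Lipa-/- mice, and by 0.63 between the time points of treated mice.

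The class I genes differed in which of them were called. A gene was called when its absolute log2 fold change was over 1 and its adjusted p under 0.05 in edgeR's quasi-likelihood test, with Benjamini-Hochberg adjustment over all tested genes. In Lipa-/- against WT mice at 12-weeks, 4 of the 10 genes were called higher (H2-D1, Tapbp, Psmb8 and Psmb10), where 20.2% of all tested genes were called higher, and none was called lower against 9.06% of all. The median log2 fold change of the 10 genes was 0.58, against 0.02 over all tested genes, and 9 of the 10 values were positive (5 at 34-weeks). On total counts the values at 12-weeks ran from 0.20 (H2-K1) to 1.83 (Tapbp), so the direction was shared more widely than the calls. At 34-weeks only Tapbp was called higher, against 20.5% of all tested genes, and none lower, against 15.7%, with a median of -0.03 for the 10 genes and for all genes alike. In treated against WT mice at 12-weeks, Psmb8 and Psmb9 were called higher (13.6% of all genes) and Tap2 lower (12% of all genes). At 34-weeks the same comparison called 0 of the 10 genes in edgeR and 0 in DESeq2, with 1 gene at an unadjusted p under 0.05, and 0.22% of all genes were called in either direction. In treated against untreated Lipa-/- mice at 12-weeks, Psmb9 was called higher (16.2% of all genes) and H2-D1, Tap2 and Tapbp lower (25.3% of all genes). At 34-weeks H2-K1, Tap1 and Psmb9 were called higher (12.8% of all genes), and none was called lower (18.6% of all genes). With scaling by total counts the numbers called higher and lower became 5 and 0, 3 and 0, 1 and 3, 0 and 0, 0 and 6, and 0 and 1 in these 6 comparisons. With log2(TPM + 0.1) in limma they were 6 and 0, 4 and 0, 0 and 3, 0 and 0, 0 and 8, and 0 and 2.

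**Figure D1:**
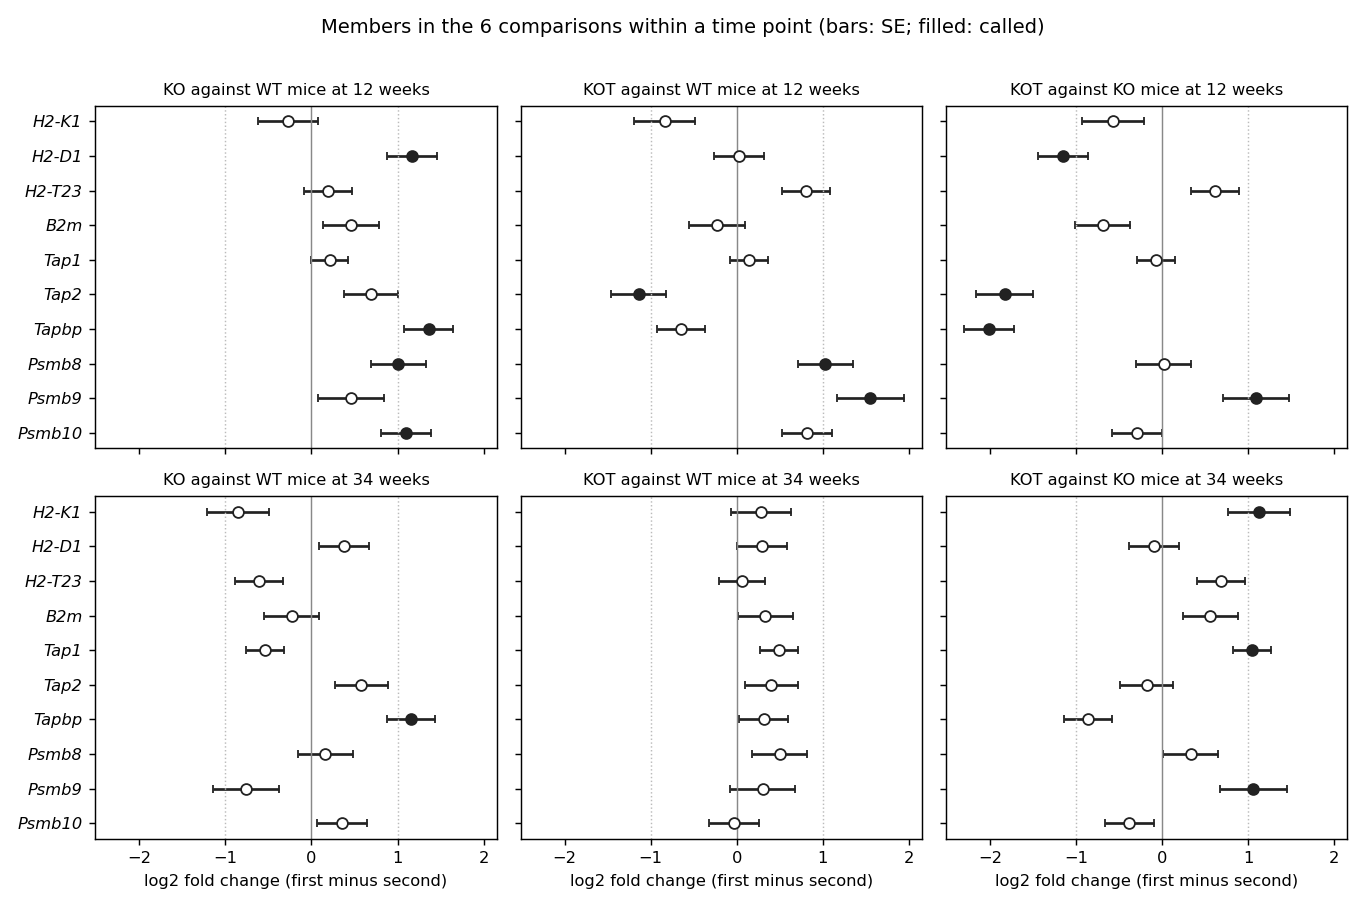
log2 fold change of each of the 10 genes in the 6 comparisons within a time point, with bars for the SE of the edgeR fit and filled points for called genes. KO stands for Lipa-/- and KOT for rAAV8-treated Lipa-/- mice. Tapbp was the gene called higher in Lipa-/- mice at both time points, at 1.36 and 1.16, and in treated against WT mice at 34-weeks all 10 points lay between -0.03 and 0.5.

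Of the heavy chains among the 10 genes, H2-D1 was the one called higher in the Lipa-/- livers at 12-weeks. Its level was 572, 779 and 644 CPM in WT mice 1, 2 and 3, 1340, 1680 and 1480 in Lipa-/- mice 5, 8 and 9, and 445, 797 and 788 in treated mice 10, 11 and 12. Each Lipa-/- mouse lay above each mouse of both other groups, and the treated and WT mice overlapped. The log2 fold change was 1.17 (SE 0.29, edgeR adjusted p = 0.00403) in Lipa-/- against WT mice and -1.15 (SE 0.29, adjusted p = 0.00346) in treated against untreated Lipa-/- mice. Without treated mouse 10 the second value was -0.95 (adjusted p = 0.0138), under the fold threshold. At 34-weeks the WT mice had 671, 1020 and 667 CPM, the Lipa-/- mice 914, 1170 and 985, and the treated mice 754, 794 and 1330. The groups overlapped, and no comparison at that time was called for this gene, with 0.38 (SE 0.29, adjusted p = 0.296) for Lipa-/- against WT mice. With log2(TPM + 0.1) that difference was called, at 1.08 (limma adjusted p = 0.0159).

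H2-K1 followed another course. At 12-weeks it stood at 1240, 1670 and 1620 CPM in WT mice, at 1270, 1430 and 1040 in Lipa-/- mice, and at 320, 1040 and 1150 in treated mice. All treated mice lay below all WT mice, mouse 10 far below. Neither difference from WT mice was called, with -0.27 (SE 0.35, edgeR adjusted p = 0.578) for Lipa-/- and -0.84 (SE 0.36, adjusted p = 0.0715) for treated mice. The second was called on total counts (-1.21, edgeR adjusted p = 0.0235), with log2(TPM + 0.1) (-1.18, limma adjusted p = 0.0451) and without treated mouse 12 (-1.22, edgeR adjusted p = 0.0272). Treated against untreated Lipa-/- mice were also called on total counts, at -1.40 (edgeR adjusted p = 0.00526). At 34-weeks the values were 1210, 1900 and 1500 CPM in WT mice, 698, 932 and 922 in Lipa-/- mice, and 1680, 1780 and 2140 in treated mice. In CPM the Lipa-/- mice were the lowest group without overlap, and the treated mice lay above them by 1.13 (SE 0.36, adjusted p = 0.0179), while the difference from WT mice was -0.85 (SE 0.36, adjusted p = 0.0586). That call was lost without Lipa-/- mouse 4 (0.97, adjusted p = 0.0837) and without treated mouse 12 (1, adjusted p = 0.0576), and with the deposited gene lengths as offsets it was 0.71 (adjusted p = 0.146). It was also lost on total counts (0.60, edgeR adjusted p = 0.216) and with log2(TPM + 0.1) (0.16, limma adjusted p = 0.794). In TPM the Lipa-/- mice at 34-weeks were not low, at 1340 to 1570 against 722 to 1730 in WT mice (means 1420 and 1250). The difference between Lipa-/- and WT mice at that time was -0.26 on total counts (edgeR adjusted p = 0.586) and changed its sign with log2(TPM + 0.1), to 0.27 (limma adjusted p = 0.638). At 12-weeks it changed its sign on total counts, to 0.20 (edgeR adjusted p = 0.718).

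The length that the authors' quantification gave H2-K1 differed between the groups. This value is the effective length of its transcripts weighted by their levels, so it shifts when reads are placed on shorter or longer transcripts of the gene. It was 1247 to 1297 bases in WT mice at 12-weeks, 670 to 1123 in Lipa-/- mice and 828 to 1007 in treated mice. At 34-weeks it was 1252 to 1303 bases in WT, 841 to 1011 in Lipa-/- and 1270 to 1298 in treated mice. All Lipa-/- mice thus lay below all WT mice at each time, and the treated mice did so at 12-weeks but not at 34-weeks. H2-D1 had 1775 to 1831 bases over all 18 mice. The annotation lists 34 transcripts for H2-K1, and class I heavy chains share long stretches of sequence, so how reads were split between the transcripts and between the genes is uncertain.

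A ratio of both genes within a mouse does not depend on how mice are scaled. The ratio of H2-D1 to H2-K1 in TPM was chosen after the values had been seen, so it is given as a description with no test. It was 0.283 to 0.335 in WT mice and 0.391 to 0.881 in Lipa-/- mice at 12-weeks, and 0.32 to 0.387 and 0.584 to 0.727 at 34-weeks. Lipa-/- mice lay above WT mice at both times, by a log2 difference of 0.86 over both times. Treated mice had 0.354 to 0.633 at 12-weeks and 0.317 to 0.434 at 34-weeks. The log2 difference was -0.64 from untreated Lipa-/- mice and 0.22 from WT mice. Without division by gene length the difference between Lipa-/- and WT mice was 1.35.

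Set against all 15 H2 heavy chain genes measured, the classical genes took a larger part of the heavy chain TPM in Lipa-/- livers, and the secreted H2-Q10 a smaller one. H2-K1 and H2-D1 together held 28.7 to 38.3% of the summed TPM in WT mice, 50 to 66.9% in Lipa-/- mice and 12.8 to 25.7% in treated mice at 12-weeks. At 34-weeks they held 22.8 to 41.3%, 55.4 to 63.5% and 38.7 to 46.2%. These shares carry the uncertain length of H2-K1 given above. In counts H2-K1 was not called higher in Lipa-/- against WT mice, at -0.27 and -0.85, or 0.20 and -0.26 on total counts. H2-D1 alone held 7.2 to 8.45% in WT and 18.8 to 23.4% in Lipa-/- mice at 12-weeks, and 6.28 to 11.5% and 20.7 to 25.7% at 34-weeks. The share of H2-Q10 was 53.5 to 61.6%, 22.6 to 35.3% and 63.3 to 72.2% at 12-weeks, and 49.6 to 68.5%, 24.6 to 32.5% and 44 to 52.4% at 34-weeks. H2-Q10 itself fell in Lipa-/- against WT mice, with log2 fold changes of -1.29 at 12-weeks (SE 0.29, edgeR adjusted p = 0.00198) and -2.16 at 34-weeks (SE 0.30, adjusted p = 1.88e-05). It was higher in treated than in untreated Lipa-/- mice, by 1.81 and 1.80 (adjusted p = 0.000126 and 0.000125), while in treated against WT mice its values were 0.52 and -0.36 (adjusted p = 0.16 and 0.965). In bulk liver, fewer cells of a type and less RNA per cell cannot be told apart.

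**Figure D2:**
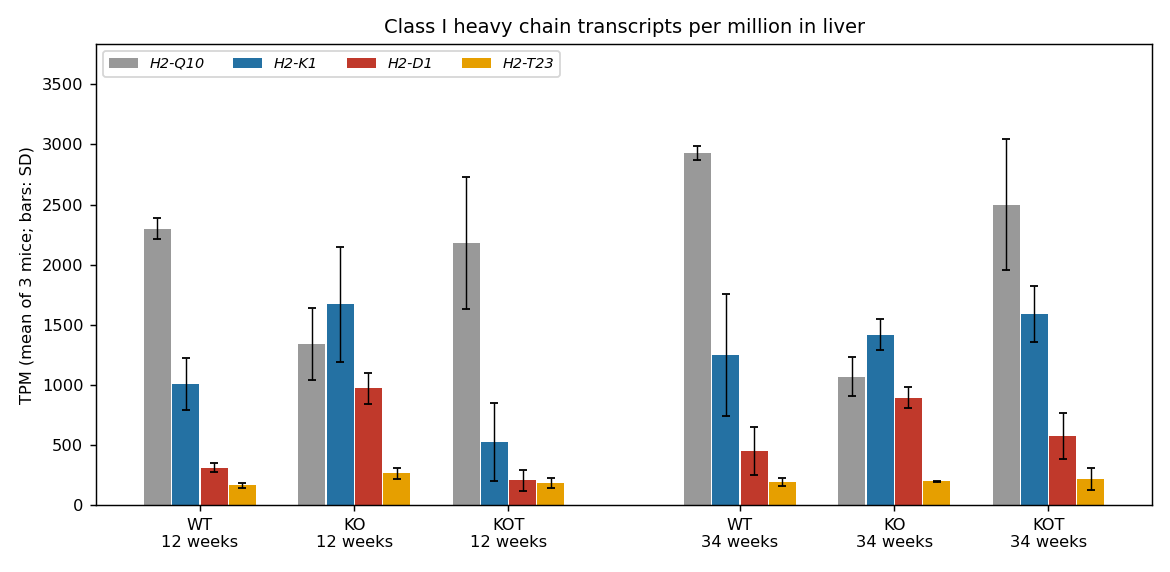
TPM of the heavy chain genes H2-Q10, H2-K1, H2-D1 and H2-T23 in each group, as bars for the mean of 3 mice with the SD. KO stands for Lipa-/- and KOT for rAAV8-treated Lipa-/- mice. H2-Q10 is the tallest bar in WT and treated mice (mean 2180 to 2930 TPM), and H2-K1 is the tallest in Lipa-/- mice (1670 and 1420 TPM).

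H2-T23, whose product Qa-1 is read by inhibitory receptors of NK cells, was highest in treated mice at 12-weeks in CPM, an order that changed with the scaling. It stood at 239, 311 and 195 CPM in WT mice, 241, 308 and 300 in Lipa-/- mice and 450, 459 and 389 in treated mice. All treated mice exceeded all others of that time, with 0.80 (SE 0.28, edgeR adjusted p = 0.0333) against WT mice, under the fold threshold. Without treated mouse 10, 11 or 12 that value was 0.69, 0.76 and 0.80 (adjusted p = 0.115, 0.0749 and 0.0563), and on total counts it was 0.42 (adjusted p = 0.214). In TPM the Lipa-/- mice were the highest, with a mean of 267 (217 to 300) against 187 (160 to 239) in treated and 167 (151 to 188) in WT mice. Treated against untreated Lipa-/- mice gave 0.61 (SE 0.28, adjusted p = 0.0709) and changed sign on total counts, to -0.26 (adjusted p = 0.396). At 34-weeks it ranged from 192 to 299 CPM in WT mice, from 134 to 179 in Lipa-/- mice and from 175 to 383 in treated mice, so that Lipa-/- mice lay below WT mice without overlap, at -0.61 (SE 0.28, adjusted p = 0.078). On total counts this was 0.03 (edgeR adjusted p = 0.932).

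B2m, the light chain that all these heavy chains bind, was not called in any of the 6 comparisons. At 12-weeks it stood at 1260, 1720 and 1610 CPM in WT mice, 2020, 2390 and 1910 in Lipa-/- mice and 641, 1580 and 1710 in treated mice. The Lipa-/- mice were the highest without overlap, at 0.46 over WT mice (SE 0.32, edgeR adjusted p = 0.277), and treated mouse 10 was the lowest of all. On total counts treated against untreated Lipa-/- mice were called, at -1.52 (adjusted p = 0.00129), where the main value was -0.69 (SE 0.32, adjusted p = 0.0821), or -0.39 without mouse 10 (adjusted p = 0.241). Treated against WT mice gave -0.23 (adjusted p = 0.598), and 0.03 without mouse 10 (edgeR adjusted p = 0.946). At 34-weeks the ranges were 1330 to 1580 CPM in WT, 947 to 1410 in Lipa-/- and 1460 to 2410 in treated mice, and Lipa-/- against WT mice gave -0.23 (SE 0.32, adjusted p = 0.586), or 0.37 on total counts (edgeR adjusted p = 0.378).

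The other class I and class I-like heavy chains, 15 of 16 listed genes tested, gave 3 called higher and 2 lower in Lipa-/- mice at 12-weeks (median 0.20), H2-Q10 among the latter, where 20.2% and 9.06% of all tested genes were called. H2-M3, H2-Q4 and H2-T10 rose by 1.78, 1.33 and 1.36 (SE 0.46, 0.25 and 0.35). Cd1d1, whose product presents lipids to NKT cells, fell by 1.57 on the log2 scale (SE 0.23, edgeR adjusted p = 4.47e-05). At 34-weeks 0 of these genes rose and 5 fell, where 20.5% and 15.7% of all tested genes were called, and the median was -0.55. With scaling by total counts the numbers higher and lower were 6 and 1 at 12-weeks and 4 and 3 at 34-weeks, and H2-Q10 at 12-weeks was -0.81 (edgeR adjusted p = 0.0129), under the fold threshold. Treated against WT mice gave 1 called higher and 1 lower at 12-weeks (13.6% and 12% of all tested genes). At 34-weeks edgeR called 0, with 3 at an unadjusted p under 0.05.

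Tapbp gave the largest difference between Lipa-/- and WT mice among the 10 genes. At 12-weeks it stood at 49.6, 49.8 and 56.8 CPM in WT mice, at 159, 152 and 90.5 in Lipa-/- mice and at 20.5, 46.1 and 32.7 in treated mice. The 3 groups did not overlap, and the order was Lipa-/-, WT, treated. Tapasin transcripts rose by 1.36 (SE 0.29, edgeR adjusted p = 0.00124) in Lipa-/- against WT mice. Treated mice lay 2.01 below untreated Lipa-/- mice (log2 fold change -2.01, SE 0.29, adjusted p = 5.06e-05), while their difference from WT mice, -0.65 (SE 0.28, adjusted p = 0.08), was not called. It was called on total counts, at -1.01 (edgeR adjusted p = 0.0311), and with log2(TPM + 0.1), at -1.31 (limma adjusted p = 0.0128). The calls of Lipa-/- against WT and of treated against untreated Lipa-/- mice were kept under all 18 alternatives run, with 1.08 to 1.83 for the first and -3.04 to -1.23 for the second. At 34-weeks the values were 44.7, 77 and 67.3 CPM in WT mice, 127, 173 and 123 in Lipa-/- mice and 82.3, 71.5 and 79.8 in treated mice. The Lipa-/- mice again stood above all others, by 1.16 over WT mice (SE 0.28, adjusted p = 0.00293), a call that was lost without WT mouse 1 (0.97, adjusted p = 0.0169), without Lipa-/- mouse 5 (1, adjusted p = 0.0173) and with the trend with gene length and GC content removed (0.89, adjusted p = 0.00271). In treated against untreated Lipa-/- mice at 34-weeks the value was -0.86 (SE 0.28, adjusted p = 0.0222), under the fold threshold, and on total counts it was called, at -1.39 (edgeR adjusted p = 0.00384).

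Tap2 was low in the treated mice at 12-weeks. It stood at 24.1, 22 and 27.6 CPM in WT mice, at 45.6, 42.6 and 30.6 in Lipa-/- mice and at 5.05, 13.8 and 14.4 in treated mice. The groups did not overlap. Treated mice were lower than untreated Lipa-/- mice by a log2 fold change of -1.83 (SE 0.33, edgeR adjusted p = 0.000278), which was kept under all 18 alternatives run at -2.96 to -1.05, and lower than WT mice by -1.14 (SE 0.32, adjusted p = 0.0143). The call against WT mice was lost without treated mouse 10 (-0.87, adjusted p = 0.0389), without WT mouse 3 (-1.04, adjusted p = 0.0597) and with the length and GC trend removed (-0.62, adjusted p = 0.0612). Lipa-/- against WT mice gave 0.69 (SE 0.31, adjusted p = 0.0938) at 12-weeks and 0.58 (SE 0.31, adjusted p = 0.141) at 34-weeks. Both were called on total counts, at 1.15 and 1.17 (edgeR adjusted p = 0.022 and 0.0164), and with log2(TPM + 1) (limma adjusted p = 0.0218 and 0.00906). At 34-weeks the treated mice, at 38.2, 32.2 and 34.9 CPM, lay above the WT mice, at 17.5, 30.5 and 31.9, and within the range of the Lipa-/- mice, at 37.4, 50.2 and 31.8.

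Tap1, the partner of Tap2 in the transporter, moved less. It ranged from 22.3 to 26.1 CPM in WT mice, from 25.3 to 29.7 in Lipa-/- mice and from 22.3 to 32 in treated mice at 12-weeks, and these groups overlapped. At 34-weeks it stood at 24.8, 31.5 and 21.6 CPM in WT mice, 15.8, 22 and 15.7 in Lipa-/- mice and 38.8, 26.1 and 44.7 in treated mice. Treated mice exceeded untreated Lipa-/- mice without overlap, by 1.04 (SE 0.22, edgeR adjusted p = 0.00138). The fold change came to 0.84 without treated mouse 12 (adjusted p = 0.00944), to 0.92 without Lipa-/- mouse 4 (adjusted p = 0.0117), to 0.95 without Lipa-/- mouse 6 (adjusted p = 0.00872) and to 0.99 without treated mouse 9 (adjusted p = 0.00559), each under the fold threshold. On total counts it was 0.51 (adjusted p = 0.147). With log2(TPM + 0.1) treated against untreated Lipa-/- mice at 12-weeks were called lower, at -1.31 (limma adjusted p = 0.00224).

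Of the other peptide loading and trimming genes, 11 of 12 listed genes tested, 0 rose and 2 fell in Lipa-/- against WT mice at 12-weeks, and 0 rose and 1 fell at 34-weeks. The median log2 fold changes were -0.45 and -0.42, and 9.06% and 15.7% of all tested genes were called lower. On total counts 1 of the 11 rose at each time, and 0 and 1 fell. Those that fell at 12-weeks were Lap3, a cytosolic leucine aminopeptidase, at -1.39 (SE 0.23, edgeR adjusted p = 0.000188), and Hspa5, the BiP chaperone of the endoplasmic reticulum, at -1.07 (SE 0.33, adjusted p = 0.016). On total counts they were -0.92 and -0.58, and Hspa5 was also under the fold threshold without WT mouse 2 (-0.75) or Lipa-/- mouse 5 (-0.84). In treated against untreated Lipa-/- mice at 12-weeks 4 of the 11 were called higher and 0 lower (16.2% and 25.3% of all tested genes). At 34-weeks 1 was called higher and 0 lower (12.8% and 18.6% of all tested genes). The 4 and 0 of 12-weeks became 2 and 0 without treated mouse 10 or Lipa-/- mouse 5, and 0 and 2 on total counts. Between treated and WT mice edgeR called 0 at either time, with 1 and 0 at an unadjusted p under 0.05.

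**Figure D3:**
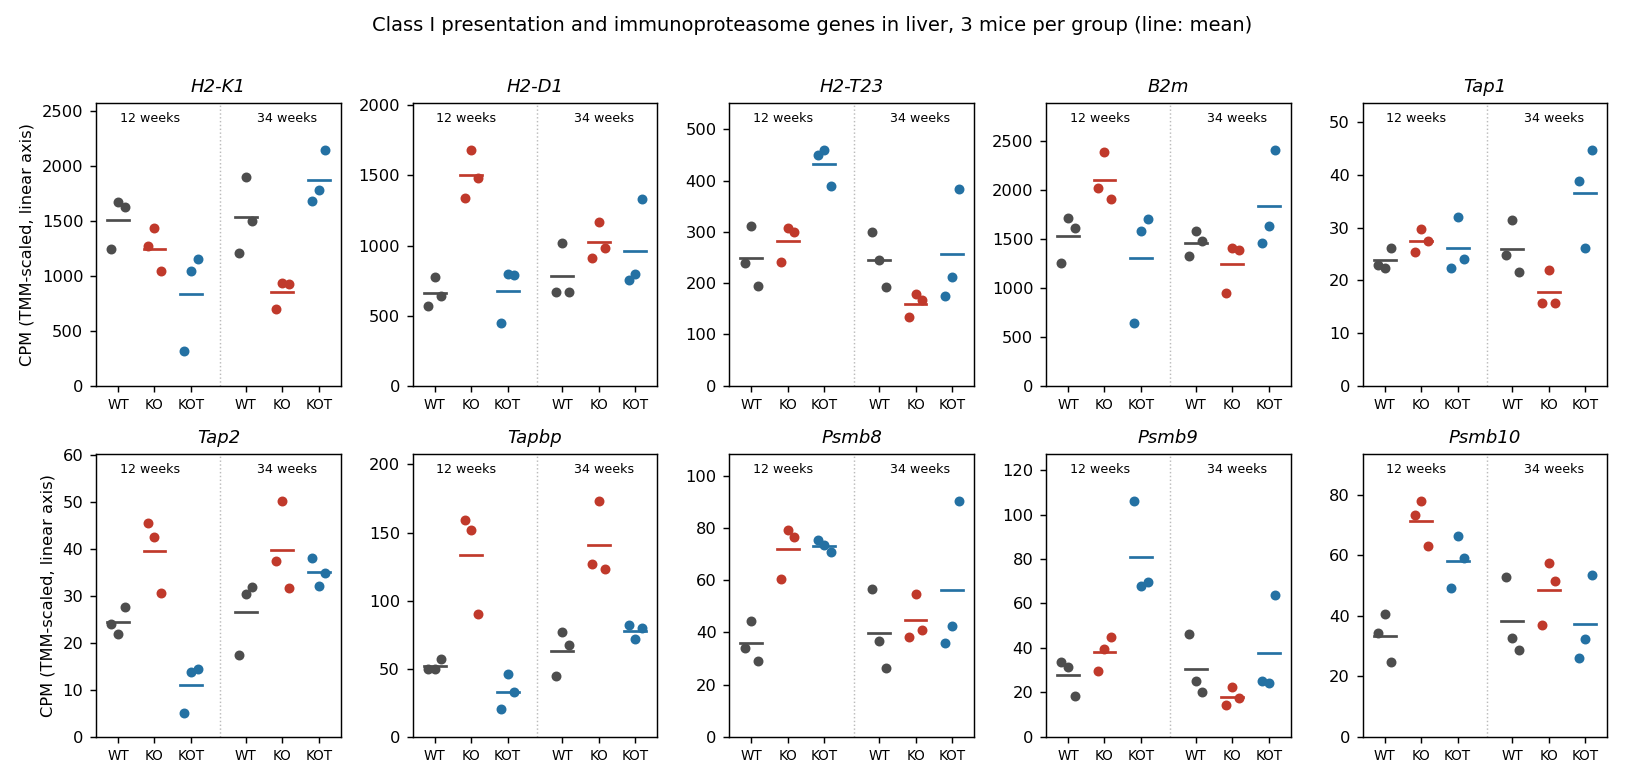
Level of each of the 10 genes in CPM (TMM-scaled, linear axes from 0) in every mouse, with a line at the mean of 3 mice. KO stands for Lipa-/- and KOT for rAAV8-treated Lipa-/- mice. Tapbp separates the Lipa-/- mice from all others at both times, and treated mouse 12 at 34-weeks is the highest treated point of that time for 8 of the 10 genes.

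Among the inducible proteasome subunits, Psmb8 and Psmb10 rose in Lipa-/- mice at 12-weeks. Psmb8 stood at 34, 44.5 and 29.1 CPM in WT mice, at 60.5, 79.1 and 76.7 in Lipa-/- mice and at 75.4, 73.5 and 70.7 in treated mice. Both Lipa-/- groups lay above WT mice without overlap, by 1.01 (SE 0.32, edgeR adjusted p = 0.0195) for untreated and by 1.03 (SE 0.32, adjusted p = 0.0218) for treated mice. These fold changes lay close to the threshold, and the calls were kept under 10 and 6 of 18 alternatives, with the mice left out in turn giving 0.88 (without WT mouse 3, adjusted p = 0.0783), 0.94 (without Lipa-/- mouse 8, adjusted p = 0.0562), 0.96 (without Lipa-/- mouse 9, adjusted p = 0.0502) and 0.97 (without WT mouse 1, adjusted p = 0.0626) for untreated mice. For treated mice the value was 0.93 without mouse 10 (adjusted p = 0.0789), 0.90 without WT mouse 3 (adjusted p = 0.0941), 0.98 without mouse 12 (adjusted p = 0.0457) and 0.99 without WT mouse 1 (adjusted p = 0.064). On total counts the treated mice gave 0.64 over WT mice (edgeR adjusted p = 0.0998) and with log2(TPM + 0.1) 0.32 (limma adjusted p = 0.394), and with the latter they lay below untreated Lipa-/- mice, at -1.09 (limma adjusted p = 0.00307), where the main value was 0.02 (edgeR adjusted p = 0.957). At 34-weeks Psmb8 ranged from 26.5 to 56.5 CPM in WT, from 38.1 to 54.8 in Lipa-/- and from 35.8 to 90.3 in treated mice, and the groups overlapped.

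Psmb10 stood at 34.2, 40.6 and 24.9 CPM in WT mice, at 73.2, 77.9 and 63.1 in Lipa-/- mice and at 49.3, 66.3 and 59 in treated mice at 12-weeks. Lipa-/- mice lay above WT mice by 1.10 (SE 0.29, edgeR adjusted p = 0.00604), or by 0.93 without WT mouse 3 (adjusted p = 0.0348), and treated mice by 0.81 (SE 0.29, adjusted p = 0.0376). The second value was 0.84, 0.71 and 0.72 without treated mouse 10, 11 or 12 (adjusted p = 0.0749, 0.103 and 0.0942). Treated against untreated Lipa-/- mice gave -0.29 (SE 0.29, edgeR adjusted p = 0.395), and on total counts -1.15 (edgeR adjusted p = 0.00161), which was called. At 34-weeks the ranges in CPM overlapped, at 28.7 to 53 CPM in WT, 36.9 to 57.4 in Lipa-/- and 26.1 to 53.5 in treated mice, with 0.35 (SE 0.29, edgeR adjusted p = 0.335) for Lipa-/- against WT and -0.38 (SE 0.29, adjusted p = 0.31) for treated against untreated mice. In TPM the Lipa-/- mice, at 115 to 150, lay above the WT mice, at 47.4 to 57.1, and the treated mice, at 40.8 to 83, without overlap. Lipa-/- against WT mice were called at that time on total counts, at 1.01 (edgeR adjusted p = 0.00532), and with log2(TPM + 1), at 1.27 (limma adjusted p = 0.000668). Treated against untreated Lipa-/- mice gave -0.90 on total counts (edgeR adjusted p = 0.0122), under the fold threshold, and -1.27 with log2(TPM + 1) (limma adjusted p = 0.000754), which was called.

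Psmb9 was highest in treated mice at 12-weeks in CPM. It stood at 33.5, 31.3 and 18.2 CPM in WT mice, 29.8, 39.7 and 44.9 in Lipa-/- mice and 106, 67.7 and 69.5 in treated mice. The treated mice exceeded all others, by 1.55 over WT mice (SE 0.39, edgeR adjusted p = 0.00888) and by 1.09 over untreated Lipa-/- mice (SE 0.38, adjusted p = 0.0247), and mouse 10 was the highest. Without mouse 10 the values were 1.23 (adjusted p = 0.0558) and 0.82 (adjusted p = 0.119), neither called. The second difference changed its sign with log2(TPM + 0.1), to -0.11 (limma adjusted p = 0.761), and on total counts it was 0.19 (adjusted p = 0.64). With log2(TPM + 0.1) the first came to 0.99 (limma adjusted p = 0.0227), just under the fold threshold, and Lipa-/- against WT mice were called, at 1.11 (limma adjusted p = 0.0103). The first was also lost without WT mouse 3 (1.33, adjusted p = 0.0519), and the second without Lipa-/- mouse 5 (0.94, adjusted p = 0.0903) or 8 (1.12, adjusted p = 0.0535). At 34-weeks the values were 46.2, 25.1 and 20.3 CPM in WT mice, 14.5, 22.2 and 17.3 in Lipa-/- mice and 24.9, 24.1 and 63.6 in treated mice. Treated mice lay above untreated Lipa-/- mice by 1.06 (SE 0.39, adjusted p = 0.0362), which was 0.42 without treated mouse 12 (adjusted p = 0.373), 0.90 without Lipa-/- mouse 4 (adjusted p = 0.15) and 1.02 without Lipa-/- mouse 6 (adjusted p = 0.0902). On total counts it was 0.54 (edgeR adjusted p = 0.221). Its neighbour Tap1, across the stretch printed above, gave 0.14 (SE 0.22, adjusted p = 0.652) in treated against WT mice at 12-weeks. The gene models of Psmb9 and Tap1 overlap, so reads from that part cannot be assigned to either with certainty.

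Each inducible subunit was then set against the constitutive subunit it replaces, as the ratio of TPM within a mouse. Psmb10 to Psmb7 was 0.226, 0.228 and 0.24 in the WT mice, 0.553, 0.951 and 1.33 in Lipa-/- mice and 0.281, 0.289 and 0.379 in treated mice at 12-weeks, in ascending order. At 34-weeks it was 0.235, 0.281 and 0.297 in WT, 0.66, 0.789 and 1.08 in Lipa-/- and 0.261, 0.275 and 0.408 in treated mice. All 6 Lipa-/- mice exceeded all other 12 mice. The log2 difference over both times was 1.78 between Lipa-/- and WT mice and -1.46 between treated and untreated Lipa-/- mice, each with p = 0.005 in the two-sided exact permutation test, the smallest it can give, and adjusted p = 0.015 over the 9 ratio tests. Treated mice lay 0.31 above WT mice (exact p = 0.03, adjusted p = 0.0675), and the exact p was 0.055 to 0.11 without WT mouse 1, 2 or 3 or treated mouse 11 of 12-weeks, or without WT mouse 1 or 3 or treated mouse 12 of 34-weeks. Within a single time the exact test of 3 against 3 mice cannot go below p = 0.1, which Lipa-/- against WT mice reached at each time, with 1.94 at 12-weeks and 1.61 at 34-weeks.

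Psmb8 to Psmb5 was 0.184 to 0.2 in WT and 0.35 to 0.48 in Lipa-/- mice at 12-weeks, and 0.153 to 0.273 and 0.311 to 0.487 at 34-weeks. Lipa-/- mice lay above WT mice at both times, by 1.03 over both (exact p = 0.005, adjusted p = 0.015). A ratio does not show which of its genes moved, and the constitutive subunits are given below. Treated mice changed places between the times, with 0.129 to 0.176 at 12-weeks, below all WT mice, and 0.269 to 0.511 at 34-weeks, overlapping both other groups. Their difference from untreated Lipa-/- mice was -1.36 at 12-weeks and 0.03 at 34-weeks (over both times -0.67, exact p = 0.06, adjusted p = 0.09). Psmb9 to Psmb6 showed no such separation, at 0.0707 to 0.102 in WT, 0.0938 to 0.111 in Lipa-/- and 0.089 to 0.123 in treated mice at 12-weeks. The difference between Lipa-/- and WT mice was 0.33 at 12-weeks and -0.27 at 34-weeks (over both times 0.03, exact p = 0.865), and treated against WT mice gave 0.50 (exact p = 0.06, adjusted p = 0.09).

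**Figure D4:**
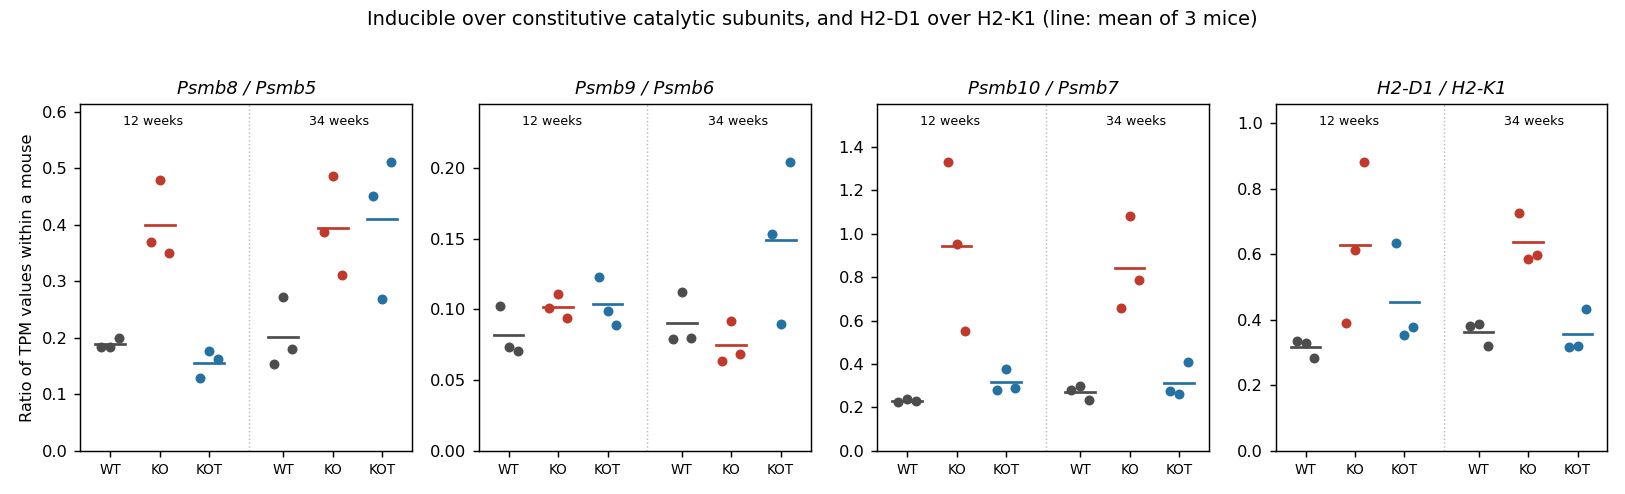
Ratio of TPM values within each mouse for Psmb8 to Psmb5, Psmb9 to Psmb6, Psmb10 to Psmb7 and H2-D1 to H2-K1, on linear axes from 0 with lines at group means. KO stands for Lipa-/- and KOT for rAAV8-treated Lipa-/- mice. For Psmb10 to Psmb7 all Lipa-/- mice lie at 0.553 or above and all other mice at 0.408 or below.

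The constitutive subunits themselves were read next. In Lipa-/- against WT mice, Psmb5 gave -0.16 (SE 0.35, edgeR adjusted p = 0.751), Psmb6 0.28 (SE 0.33, adjusted p = 0.533) and Psmb7 -0.61 (SE 0.24, adjusted p = 0.0557) at 12-weeks. At 34-weeks Psmb7 fell by 1.06 on the log2 scale (SE 0.24, adjusted p = 0.00185), and Psmb5 gave -0.97 (SE 0.35, adjusted p = 0.0333) and Psmb6 -0.39 (SE 0.33, adjusted p = 0.345). Psmb8 and Psmb10 gave 0.16 and 0.35 in that comparison. With TMM scaling the ratios Psmb8 to Psmb5 and Psmb10 to Psmb7 at 34-weeks thus differed more through the constitutive than the inducible subunit. On total counts Psmb8 and Psmb10 gave 0.83 and 1.01, and Psmb5 and Psmb7 gave -0.27 and -0.39. The call of Psmb7 was lost on total counts (-0.39), with the length and GC trend removed (-0.62), without WT mouse 1 (-0.78) and without Lipa-/- mouse 4 (-0.97). Of the 15 genes of the constitutive core, edgeR called 0 at 12-weeks (2 at an unadjusted p under 0.05) and 4 lower at 34-weeks. The medians were -0.19 and -0.72, and 15.7% of all tested genes were called lower at 34-weeks. The 4 became 0 on total counts, with the trend removed or without WT mouse 1, and 2 without Lipa-/- mouse 4. The 18 genes of the regulatory particle had medians of -0.42 and -0.64, with 0 called at either time and 7 and 13 at an unadjusted p under 0.05. Of the 4 activators, Psme4, the nuclear activator PA200, fell at 12-weeks by 1.21 on the log2 scale (SE 0.21, adjusted p = 0.000255), or by 0.75 on total counts, under the fold threshold. On total counts Psmb5 and Psmb6 in Lipa-/- against WT mice at 12-weeks came to 0.33 and 0.77 and Psmb7 to -0.13, so the sign of Psmb5 depended on the scaling, and at 34-weeks that of Psmb6 did too, at 0.32.

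In treated against WT mice at 12-weeks, 9 of the 15 core genes rose and 0 fell, with a median of 1.03, among them Psmb5 at 1.25 (SE 0.36, edgeR adjusted p = 0.0145) and Psmb6 at 1.29 (SE 0.33, adjusted p = 0.00966), or 0.85 and 0.89 on total counts. Of all tested genes 13.6% were called higher. The 9 core genes became 2 without treated mouse 10, 1 without WT mouse 3, 2 on total counts, 1 with log2(TPM + 0.1) in limma and 1 with the length and GC trend removed. Psmb5 was 1.02 without treated mouse 10 (edgeR adjusted p = 0.0774), and Psmb5 and Psmb6 were 1.07 and 1.13 without WT mouse 3 (adjusted p = 0.0741 and 0.0549), none of them called. The activator subunits Psme1 and Psme2, which form the interferon-inducible cap PA28, also rose, by 1.16 (SE 0.27, adjusted p = 0.00734) and 1.25 (SE 0.34, adjusted p = 0.0126). On total counts they were 0.76 and 0.85, under the fold threshold, and Psme2 was not called without treated mouse 10 (1.03, edgeR adjusted p = 0.0688) or WT mouse 3 (1.09, adjusted p = 0.0672). At 34-weeks edgeR called 0 of the 15 core genes and 0 of the 4 activators, with 0 at an unadjusted p under 0.05 in either list and core genes at a median of -0.37. The rise at 12-weeks stood beside the dependence on gene length described above. In that comparison the median log2 fold change over all genes was 1.22 in the bin of shortest genes (mean effective length 352 bases), and 0.82, 0.29, 0.10, -0.17, -0.27 and -0.44 in the bins with mean lengths of 774, 1260, 1743, 2470, 3426 and 5183 bases. Psmb8, Psmb9 and Psmb10 have mean effective lengths of 818, 988 and 644 bases, and Tap1, Tap2 and Tapbp of 2574, 2655 and 2298. The short genes of the group thus lay where all genes were shifted up, and the long ones where all genes were shifted down. B2m (624 bases) and H2-K1 (1099 bases) lay below the medians of their length.

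With each mouse's trend with length and GC content removed, an alternative chosen after the data had been seen, Psmb9 stayed called higher in treated against WT mice at 12-weeks (SE 0.31, edgeR adjusted p = 0.00826). The values of other genes were then 0.67 for Psmb8 (adjusted p = 0.0345), 0.31 for Psmb10 (adjusted p = 0.201), 0.79 for Tap1 (adjusted p = 0.0181), -0.62 for Tap2 (adjusted p = 0.0612), -1.03 for H2-K1 (adjusted p = 0.0315) and -1.46 for B2m (adjusted p = 0.0213). So 1 of the 10 genes was called higher and 2 lower. In Lipa-/- against WT mice at 12-weeks the same removal left Tapbp at 1.08 (adjusted p = 0.000765) called, and H2-D1 at 0.96 (adjusted p = 0.00484), Psmb10 at 0.88 (adjusted p = 0.000972) and Psmb8 at 0.80 (adjusted p = 0.00908) under the fold threshold. Psmb5, Psmb6 and Psmb7 came to 0.66, 0.46 and -0.13 in treated against WT mice.

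**Figure D5:**
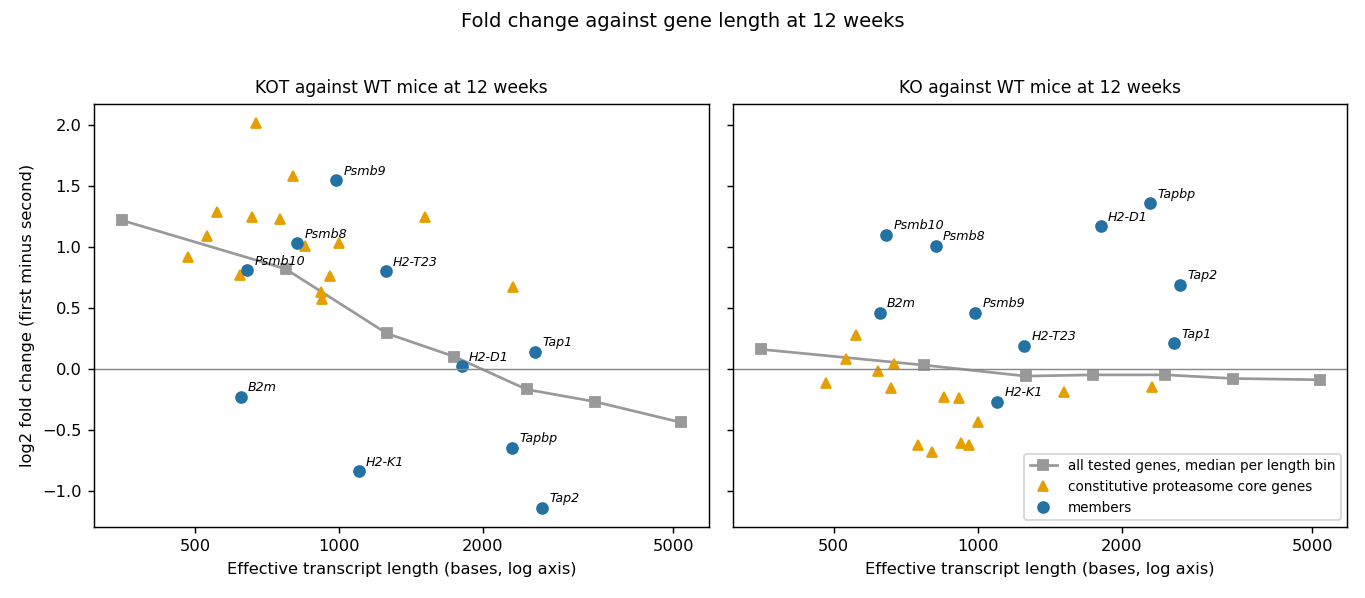
log2 fold change at 12-weeks against mean effective transcript length in bases (log axis), for rAAV8-treated Lipa-/- (KOT) against WT mice on the left and Lipa-/- (KO) against WT mice on the right. Grey squares are medians of all tested genes per length bin, triangles are constitutive proteasome core genes and circles are the 10 class I genes. On the left the medians fall from 1.22 to -0.44 with length, and on the right they stay between 0.16 and -0.09. The dependence on GC content is not shown.

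Genes that regulate class I expression were read next. Of 24 such genes, all tested, 7 were called higher and 0 lower in Lipa-/- mice at 12-weeks, and 6 and 0 at 34-weeks, with medians of 0.47 and 0.27. These are 29.2% and 25% of the list, where 20.2% and 20.5% of all tested genes were called higher. On total counts 11 were called higher at each time. The largest rises at 12-weeks were Relb at 3.60 (SE 0.36, edgeR adjusted p = 9.67e-07) and Nfkb2 at 2.85 (SE 0.33, adjusted p = 4.92e-06), subunits of NF-kappaB, Irf8 at 3.03 (SE 0.31, adjusted p = 1.61e-06), a factor of myeloid cells, and Socs3 at 2.91 (SE 0.68, adjusted p = 0.00292), a feedback inhibitor of cytokine signalling. Nlrc5, the transactivator of class I genes, was not called, at 0.62 (SE 0.38, adjusted p = 0.217) and 0.21 (SE 0.38, adjusted p = 0.679). Irf1, an activator of class I genes, gave 0.93 (SE 0.25, adjusted p = 0.00797) at 12-weeks and -0.77 (SE 0.25, adjusted p = 0.0195) at 34-weeks, under the fold threshold each time, and the first was called on total counts, at 1.41 (edgeR adjusted p = 0.000383), without WT mouse 2 (1.13, adjusted p = 0.0059) and without Lipa-/- mouse 9 (1.12, adjusted p = 0.0037). In treated against WT mice at 12-weeks Irf1 rose by 1.18 (SE 0.26, adjusted p = 0.00509), or 0.81 on total counts (adjusted p = 0.0227), and Nlrc5 gave -0.32 (adjusted p = 0.543). At 34-weeks edgeR called 0 of the 24 between treated and WT mice, with 1 at an unadjusted p under 0.05.

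Interferon-stimulated genes outside antigen presentation, 26 in number, were called higher in 6 and lower in 2 cases in Lipa-/- mice at 12-weeks, with a median of 0.28, and in 4 and 3 cases at 34-weeks, with a median of -0.19. The shares of the list were 23.1% and 7.69% at 12-weeks, near the 20.2% and 9.06% of all tested genes, and 15.4% and 11.5% at 34-weeks against 20.5% and 15.7%. The largest changes at 12-weeks were Ifi27l2a at 2.82 (SE 0.70), Oas1a at 2.49 (SE 0.50), Oasl2 at 2.07 (SE 0.42) and Zbp1 at 1.86 (SE 0.43). In treated against WT mice 8 were called higher and 2 lower at 12-weeks (13.6% and 12% of all tested genes). The 8 became 2 without treated mouse 10 or WT mouse 3, 5 without WT mouse 1, 3 on total counts and 5 with the length and GC trend removed. At 34-weeks edgeR called 0, with 2 at an unadjusted p under 0.05, the median was 0.54 and all 26 values were positive.

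Leukocyte transcripts also differed between the groups. Of all tested genes, 20.2% were called higher and 9.06% lower in Lipa-/- against WT mice at 12-weeks, and 20.5% higher at 34-weeks. In treated against WT mice 13.6% were called higher at 12-weeks, and 0.22% in either direction at 34-weeks. All 5 general leukocyte markers were called higher in Lipa-/- against WT mice at each time, and their summed level was 14.7 to 25.3 TPM in WT, 502 to 861 in Lipa-/- and 44.7 to 89.4 in treated mice at 12-weeks, and 25.1 to 55, 461 to 721 and 34.7 to 117 at 34-weeks. None of the 5 was without reads in any group. The 9 macrophage and Kupffer cell markers summed to 86.9 to 195 TPM in WT, 2820 to 7020 in Lipa-/- and 452 to 1110 in treated mice at 12-weeks, and to 182 to 371, 2950 to 5090 and 250 to 764 at 34-weeks. In Lipa-/- against WT mice at 12-weeks 6 of these 9 rose and 1 fell. Of the CD8 T cell and NK genes, the cells that read class I, 15 of 17 were tested, and 11 were called higher and 0 lower in Lipa-/- mice at 12-weeks (median 2.25), 8 and 0 at 34-weeks (median 1.69), and in treated against WT mice 11 and 0 at 12-weeks (median 2.87) and 1 and 0 at 34-weeks (median 1.14). When single mice were left out, the 11 in Lipa-/- mice at 12-weeks became 7 to 10 and the 8 at 34-weeks 4 to 9, with the lowest counts without WT mouse 3 for the first, and without WT mouse 3 or Lipa-/- mouse 4 or 5 for the second. The largest rises in Lipa-/- mice at 12-weeks were in Klrb1c (mean 0.0179 CPM in WT and 0.822 in Lipa-/- mice), Cd8b1 (0.0653 and 1.61), Cd8a (0.223 and 2.75) and Klrd1 (0.24 and 1.73). These WT means rest on few reads, so the fitted fold changes depend on the prior count and are not given. The 5 cholangiocyte markers summed to 16.8 to 31.3 TPM in WT and to 400 to 2370 TPM in Lipa-/- mice at 12-weeks. Of these 5, 3 were called higher and 0 lower, with log2 fold changes from 0.17 to 5.14. The sum may thus rest on a few of them. The part of these cells in the class I values was not tested.

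Between 34- and 12-weeks, WT mice showed no called change in the 10 genes by edgeR or DESeq2, with 0 at an unadjusted p under 0.05, and 0.323% of all genes were called. Untreated Lipa-/- mice also had 0 called by edgeR and 0 by DESeq2, with 5 at an unadjusted p under 0.05 and 0.495% of all genes called. In these mice 8 of the 10 genes had lower means at 34-weeks, with a median of -0.59 against -0.04 over all genes. The exceptions were Tap2 (0.01, SE 0.31) and Tapbp (0.08, SE 0.28). The lowest values were those of Psmb9 (-1.08, SE 0.39, edgeR adjusted p = 0.18) and H2-T23 (-0.82, SE 0.28, adjusted p = 0.158). The interaction, which asks whether the difference between Lipa-/- and WT mice itself changed with time, called 0 of the 10 genes by edgeR and by DESeq2, with 2 at an unadjusted p under 0.05 and 0.0619% of all genes called. All 10 interaction values were negative, from -1.22 to -0.11, but that of Tap2 was 0.02 on total counts, and those of Tap2 and Tapbp were 0.10 and 0.03 with log2(TPM + 0.1). The sign was not particular to the 10 genes, since 0 of the 15 constitutive core genes had a positive value either. The median interaction was -0.75 for the 10 genes, -0.48 for the core genes and -0.14 over all tested genes.

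In treated mice, H2-K1 (1.15, SE 0.36, edgeR adjusted p = 0.0163), Tap2 (1.65, SE 0.33, adjusted p = 0.00175) and Tapbp (1.23, SE 0.29, adjusted p = 0.00331) were higher at 34-weeks, where 17.5% of all genes were called higher, and Psmb9 (-1.11, SE 0.38, adjusted p = 0.0272) was lower, where 14.5% of all were. Without treated mouse 10 of the 12-weeks group, H2-K1 came to 0.80 (adjusted p = 0.029) and Psmb9 to -0.84 (adjusted p = 0.13), and 2 of the 10 genes were called. With total counts 6 were called higher and 0 lower. H2-T23 was called lower without treated mouse 12 of the 34-weeks group, at -1.12 (adjusted p = 0.00417). Psmb9 was also not called without treated mouse 9 (-0.89, adjusted p = 0.119) or 11 (-0.88, adjusted p = 0.11) of the 34-weeks group. With the length and GC trend removed, Tap2 gave 0.97 (adjusted p = 0.00658) and Tapbp 0.58 (adjusted p = 0.0496). The corresponding interaction called Tap2 alone, at 1.53 (SE 0.45, adjusted p = 0.0319), where 18.4% of all genes were called in either direction. Its value was 1.27 without treated mouse 10 of the 12-weeks group (edgeR adjusted p = 0.0543) and 1.31 without WT mouse 1 of the 34-weeks group (adjusted p = 0.0877), and Tapbp was called too without treated mouse 11 of the 12-weeks group, at 1.27 (adjusted p = 0.0413).

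Between mice of a group, some of the genes varied together and others did not. After subtraction of each group's mean, the correlation of log2 CPM across the 18 mice was 0.74 to 0.96 among Psmb8, Psmb9, Psmb10 and H2-T23, 0.80 to 0.95 among H2-K1, H2-D1 and B2m, and 0.90 between Tap2 and Tapbp. Tap2 and Tapbp against the 3 inducible subunits gave -0.49 to 0.05, and the median of all 45 pairs was 0.46. These values describe 18 mice in 6 groups, whose libraries also share depth and the dependence on gene length. The mean standardized deviation of the 10 genes averages over genes that did not all vary together. It was lowest in treated mouse 10 at 12-weeks (-1.26) and highest in treated mouse 12 at 34-weeks (1.39). That last mouse also had the highest sums of the treated mice at 34-weeks in 8 of the 10 marker lists, all but dendritic cells and hepatocytes, with 117 TPM against 34.7 and 56.5 for general leukocytes, 764 against 250 and 301 for macrophages and Kupffer cells, and 1940 against 6.02 and 12.2 for neutrophils. The part of these cells in its class I values was not tested. Of 7724 other genes whose mean reached 10 CPM, those most like the mean deviation of the 10 genes were Tmem176b (r = 0.95), Shisa5 (0.92), Faap20 (0.89), Ddx28 (0.89) and Tmem176a (0.87), over 18 mice. For comparison, Psme1 gave 0.49, H2-Q10 0.48, Psmb5 0.15, the leukocyte gene Ptprc 0.11 and Nlrc5 -0.04.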

How the data were processed

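Liver RNA of 18 male mice was analysed, 3 separate animals in each of 6 groups, with groups taken from the labels and time points in weeks from the study. The authors assigned paired-end reads with Salmon to Ensembl transcripts of GRCm39 and summed them to genes with tximport. The deposited estimated counts are not normalized, and 19.4% are not whole. The deposited TPM values and gene lengths in bases were computed by the authors within each mouse. The deposited log2 fold changes and p-values between groups, from DESeq2 1.40.1 in R 4.3.0 per the submitters' processing notes, were not used.

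Counts were rounded, genes with more than 100 reads in sum were kept, and edgeR 4.0.16 in R 4.3.3 (TMM, quasi-likelihood, 6 group means, Benjamini-Hochberg over 14533 genes) gave 11 comparisons. Ratios of proteasome subunits in TPM were compared with two-sided exact permutation tests within time points on the log2 scale. Mice of both times are different animals, since livers were taken at sacrifice, and same-numbered mice were not paired. Alternatives were DESeq2 1.42.0 or edgeR with gene lengths as offsets, other scalings, filters and thresholds, limma 3.58.1 on log2(TPM + 0.1) or log2(TPM + 1), only the groups compared, a replicate block, leaving out each mouse and, added after the data had been seen, removal of each mouse's trend with length and GC content (98.4% of genes had GC values) and the recount of the other gene lists under scaling, trend removal and each mouse left out. On data simulated with the layout of Lipa-/- against WT mice at 12-weeks and 13127 genes, edgeR recovered 96 of 100 genes changed 4-fold with 6 false calls. All simulated libraries were drawn from the WT mice at 12-weeks, with few changed genes and no trend with length or GC content. Recovery of smaller changes was not recorded. The simulation thus checks that the code runs as intended and does not give the error rate of the calls reported here.

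The 10 genes and all lists were chosen with earlier results of these data known. Named were the 10 genes, Psmb5, Psmb6, Psmb7, Psme1, Psme2, Nlrc5, Irf1 and H2-Q10, from each other list at most 4 called genes with the largest absolute log2 fold change in Lipa-/- against WT mice at 12-weeks, and the 5 genes most correlated with the 10. Ptprc was added as a leukocyte gene. A further gene under this rule is not reported here.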

Additional observations from a re-analysis of the deposited data

Results flagged for a closer look

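Tap2 was the 1 gene of the 10 for which the difference between treated Lipa-/- and WT mice itself differed between the time points by a test of that difference. The interaction was 1.53 (log2, 34- minus 12-weeks, SE 0.45, edgeR adjusted p = 0.0319 over all genes), with -1.14 at 12-weeks and 0.40 at 34-weeks. At 12-weeks all 3 treated mice lay below all WT mice, and at 34-weeks all 3 lay above them. Of all tested genes, 18.4% were called in this interaction. The value was 1.27 without treated mouse 10 (adjusted p = 0.0543), 1.31 without WT mouse 1 at 34-weeks (adjusted p = 0.0877), 1.44 without WT mouse 3 at 12-weeks (adjusted p = 0.0838), 1.47 without treated mouse 9 (adjusted p = 0.0802), 1.55 without WT mouse 1 at 12-weeks (adjusted p = 0.0589), 1.59 without treated mouse 11 at 34-weeks (adjusted p = 0.0509) and 0.96 with the trend with length and GC content removed (adjusted p = 0.0656). Tap2 has a mean effective length of 2655 bases, and treated mice at 12-weeks were the libraries in which long genes stood lower. In treated mouse 9 at 34-weeks long genes stood higher, with a slope of 0.36 per doubling of length. The part of that trend beyond these values was not tested.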

How the results depend on the processing

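With the trend with length and GC content removed, Lipa-/- against WT mice gave 1 of the 10 genes called at 12-weeks (main value 4) and 0 at 34-weeks (1), treated mice between times 2 (4) and the treated interaction 0 (1). Lipa-/- against WT mice at 34-weeks gave 3 with total counts and 4 with log2(TPM + 0.1) or log2(TPM + 1). Treated against WT mice at 12-weeks (3) gave 5 with an adjusted p alone and 1 with an adjusted p under 0.01. Treated against untreated Lipa-/- mice gave 8 with either TPM form at 12-weeks (4), and at 34-weeks (3) 1 with upper-quartile factors, total counts, DESeq2 or edgeR with length offsets, only the groups compared, or an adjusted p under 0.01. Treated mice between times gave 2 with only the groups compared or an adjusted p under 0.01. The treated interaction gave 0 with these and 2 with either TPM form. Leaving out each mouse gave 2 to 4, 0 to 1, 0 to 3, 2 to 4, 0 to 3, 2 to 5 and 0 to 4 in these comparisons (Lipa-/- against WT at 12- and 34-weeks, treated against WT at 12-weeks, treated against untreated at 12- and 34-weeks, treated between times, treated interaction). The lowest values came without WT mouse 3 for the first, without WT mouse 1 or Lipa-/- mouse 5 for the second, without WT mouse 3 or treated mouse 10 for the third, without treated mouse 10 for the fourth and sixth, and without Lipa-/- mouse 4 or treated mouse 12 for the fifth, which gave 1 without Lipa-/- mouse 6. The interaction gave 4 without treated mouse 12 of 34-weeks, 2 without treated mouse 11 of 12-weeks, and 0 without each of 6 mice named above. The causes were not tested. In treated against untreated Lipa-/- mice at 12-weeks, Psmb8 turned from 0.02 to -1.09 and -1.08, and Psmb9 from 1.09 to -0.11 and -0.11, with log2(TPM + 0.1) and log2(TPM + 1).

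Livers were taken at sacrifice, so mice of the 2 times are different animals and a shared number makes no pair. Same-numbered WT mice correlated at 0.08, -0.24 and 0.46 and treated mice 11 and 12 at -0.08 and -0.25. With the mouse number as a replicate block, which the design does not call for, treated mice between times gave 1 gene called instead of 4, and WT mice 0.

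For the ratios, estimated counts with no division by length gave -0.72 for Psmb8 to Psmb5 in treated against untreated Lipa-/- mice (exact p = 0.045), -0.12 for Psmb9 to Psmb6 in Lipa-/- against WT mice, 0.58 in treated against untreated mice (exact p = 0.045) and 0.26 for Psmb10 to Psmb7 in treated against WT mice (exact p = 0.1). Leaving out each mouse gave -0.76 to -0.53, -0.05 to 0.11, 0.34 to 0.64 and 0.21 to 0.37 for these, 0.37 to 0.67 for Psmb9 to Psmb6 in treated against WT mice and -0.79 to -0.50 for H2-D1 to H2-K1 in treated against untreated mice. Of the values for single genes, 1839 kept direction and call, 98 lost a call, 60 gained one, 119 changed sign without a call on either side and 4 reversed.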
